A study of Mus musculus with 117 samples.

Results

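The regions bound by SUMO-2 in mouse embryonic fibroblasts (MEF) and in mouse embryonic stem (ES) cells are described here, as 9979 peaks in MEF and 12014 peaks in ES cells, out of 563630 peaks in the 32 peak lists of the series. The members were all peaks of the 2 SUMO-2 lists. A peak was called shared where it overlapped a peak of the other list by 1 bp or more, and cell-specific otherwise. The MEF were wild type, from E13.5 embryos, at passage 1. The ES cells were wild type, at passage 15 to 20. The SUMO-2 antibody was a laboratory gift, and each list was made by the authors from 2 replicates. There is therefore 1 list per cell type, no test across replicates was possible for any peak result, and the 95% Wilson intervals given with shares cover counting error only. Read depth behind the lists is unknown.

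SUMO proteins are small modifiers that are joined to lysines of other proteins, through an E1 enzyme, the E2 enzyme Ubc9 and E3 ligases, and are removed by SENP proteases. SUMO-2 is closely related to SUMO-3, and less so to SUMO-1. Many SUMO targets are transcription factors, corepressors and chromatin proteins, and SUMO on chromatin has been linked both to promoters and to heterochromatin. Of the marks measured beside it, H3K4me3 marks promoters, H3K4me1 with H3K27ac marks active enhancers, H3K27me3 is laid down by Polycomb, and H3K9me3 marks heterochromatin. No genome or annotation of the mouse build of the files (mm9) was used, so no gene is assigned to a peak and no peak sequence is shown.

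The SUMO-2 maps of the 2 cell types were largely different. Of the MEF peaks, 1001 (10.0%, interval 9.46 to 10.6) met an ES peak, and 1001 of the ES peaks (8.33%, interval 7.85 to 8.84) met a MEF peak. The other 8978 MEF peaks and 11013 ES peaks were cell-specific. Both lists summed to the same 8.59 Mb, to 3 significant digits. Most cell-specific peaks had no near neighbour in the other list: the median distance from a summit to the nearest summit of the other list was 91.8 kb for MEF-only and 149 kb for ES-only peaks. Within 10 kb of the other list lay 8.61% of MEF-only peaks and 7.51% of ES-only peaks, and within 500 bp lay 42 MEF-only and 47 ES-only peaks.

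Where the lists met, they met at the same place. The 1009 overlapping pairs had a median overlap of 462 bp, and only 2 of them overlapped by under 100 bp. The summits were a median of 23.0 bp apart, 887 pairs (87.9%) had them within 100 bp, and 37 had them over 500 bp apart. The MEF peak was the wider of the pair in 313 cases and the ES peak in 693, with a median width ratio, ES over MEF, of 1.19. The score order was only partly kept: 103 pairs (10.2%) were in the top 10% of both lists, 454 in the upper 50% of both, and 214 had ranks over 50 percentage points apart. Across the pairs, which share the genome positions but not the libraries, the ranks had a Pearson r of 0.24 and a Spearman rho of 0.28, given as a description.

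Peaks were widest among those specific to MEF. Their median width was 761 bp (quartiles 513 and 1137), against 507 bp for the MEF peaks of shared sites (393 and 729). In ES cells the classes were alike, with medians of 603 bp for ES-only (489 and 808) and 618 bp for shared peaks (491 and 857). By the authors' score, used only as a rank within its own list, shared peaks stood higher than cell-specific peaks in both cell types. Their median rank was at 35.7% of the MEF list and 29.9% of the ES list from the top, against 51.2% for MEF-only and 51.5% for ES-only peaks. The top 10% of the list held 282 shared peaks of 1007 in MEF (28.0%), and 226 of 1201 in ES cells (18.8%). Of the 100 highest-scoring peaks, 80 in MEF and 38 in ES cells were shared. Some of those in MEF were close neighbours. The window chr13:23500001-23600000 held 19 shared MEF peaks, at a median rank of 0.446% from the top of the list.

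**Figure D1:**
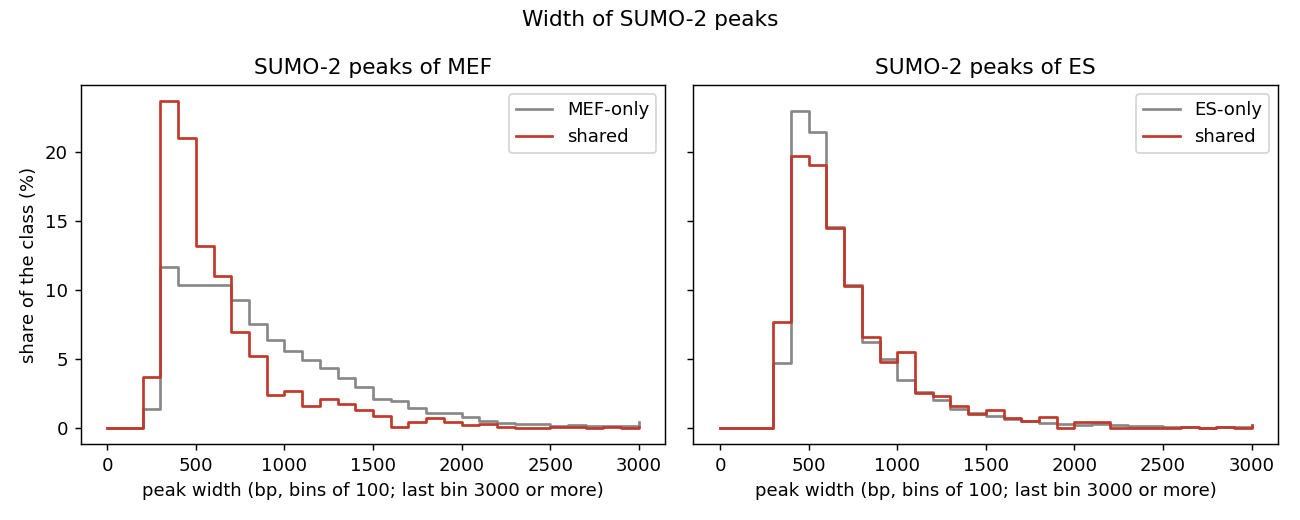
Width of SUMO-2 peaks in MEF (left) and ES cells (right), as the share of each class per bin of 100 bp, with cell-specific peaks in grey and shared peaks in red. MEF-only peaks extend to greater widths (median 761 bp) than shared MEF peaks (507 bp), while the ES classes nearly coincide (603 and 618 bp).

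The MEF-only sites carried marks of active enhancers in MEF. H3K27ac overlapped 5771 of the 8978 peaks (64.3%, interval 63.3 to 65.3) and H3K4me1 4930 (54.9%, interval 53.9 to 55.9), and 4220 (47.0%) carried both. The promoter mark H3K4me3 overlapped 4.54%, H3K9me3 6.73%, and H3K27me3 0.156%. No mark of the 5 was found on 23.3%. The same sites were mostly unmarked in ES cells: H3K27ac overlapped 5.41%, H3K4me1 3.06%, H3K4me3 3.98%, H3K27me3 0.468% and H3K9me3 0.590%, and 91.4% had none of the marks.

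ES-only sites had another profile. In ES cells the heterochromatin mark H3K9me3 was the most frequent, on 2729 of 11013 peaks (24.8%, interval 24.0 to 25.6). H3K27ac overlapped 1639 (14.9%), H3K4me3 1165 (10.6%), H3K4me1 557 (5.06%) and H3K27me3 128 (1.16%). No mark was found on 56.7% of the class. In MEF the same sites had H3K9me3 on 7.98%, H3K27ac on 2.80%, H3K4me3 on 2.35% and no mark on 87.3%.

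Shared sites combined promoter and heterochromatin marks. The promoter mark was more frequent here than at cell-specific sites of either kind. As MEF peaks, 342 of 1001 (34.2%, interval 31.3 to 37.2) overlapped H3K9me3 in MEF, 236 (23.6%) H3K27ac and 213 (21.3%, interval 18.9 to 23.9) H3K4me3, while H3K4me1 was on 7.29%. As ES peaks, 245 (24.5%, interval 21.9 to 27.2) overlapped H3K9me3 in ES cells, 263 (26.3%) H3K27ac and 271 (27.1%, interval 24.4 to 29.9) H3K4me3. Promoter and heterochromatin marks lay on different peaks: of the 342 shared peaks with MEF H3K9me3, 6 had MEF H3K4me3, and of the 242 MEF peaks with ES H3K9me3, 18 had ES H3K4me3. No mark was found on 38.4% in MEF and on 47.2% in ES cells.

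The mark lists differed in length between the cell types. H3K9me3 covered 6.86 Mb in MEF and 9.35 Mb in ES cells, and H3K27ac 52.7 Mb in MEF and 46.4 Mb in ES cells. H3K4me1 covered 30.5 Mb in MEF and 16.3 Mb in ES cells, H3K4me3 26.6 Mb in MEF and 41.6 Mb in ES cells, and H3K27me3 18.4 Mb in MEF and 8.04 Mb in ES cells. The part of these lengths in the differences above was not tested. With only the upper 50% of each mark list by score, H3K27ac was on 41.2% of MEF-only peaks, and H3K9me3 and H3K27ac were on 15.5% and 8.67% of ES-only peaks. At shared sites the same setting left H3K4me3 on 11.4% of MEF peaks and H3K9me3 on 14.5% of ES peaks.

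SUMO-2 and H3K9me3 summits were closer together than those of SUMO-2 and H3K27ac. At MEF-only peaks that overlapped the mark, the SUMO-2 summit was a median of 190.5 bp from the H3K9me3 summit, against 333 bp for H3K27ac, 346 bp for H3K4me1 and 464 bp for H3K4me3. The median at shared MEF peaks was 102 bp for H3K9me3 and 433 bp for H3K4me3. ES-only peaks had a median of 293 bp for H3K9me3, 433 bp for H3K27ac and 176 bp for H3K4me3. These are distances between deposited summits, and mark peaks differ in width. Of the MEF-only peaks with H3K27ac, 63.2% lay wholly inside the H3K27ac peak, and of those with H3K9me3 16.4% lay wholly inside it.

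**Figure D2:**
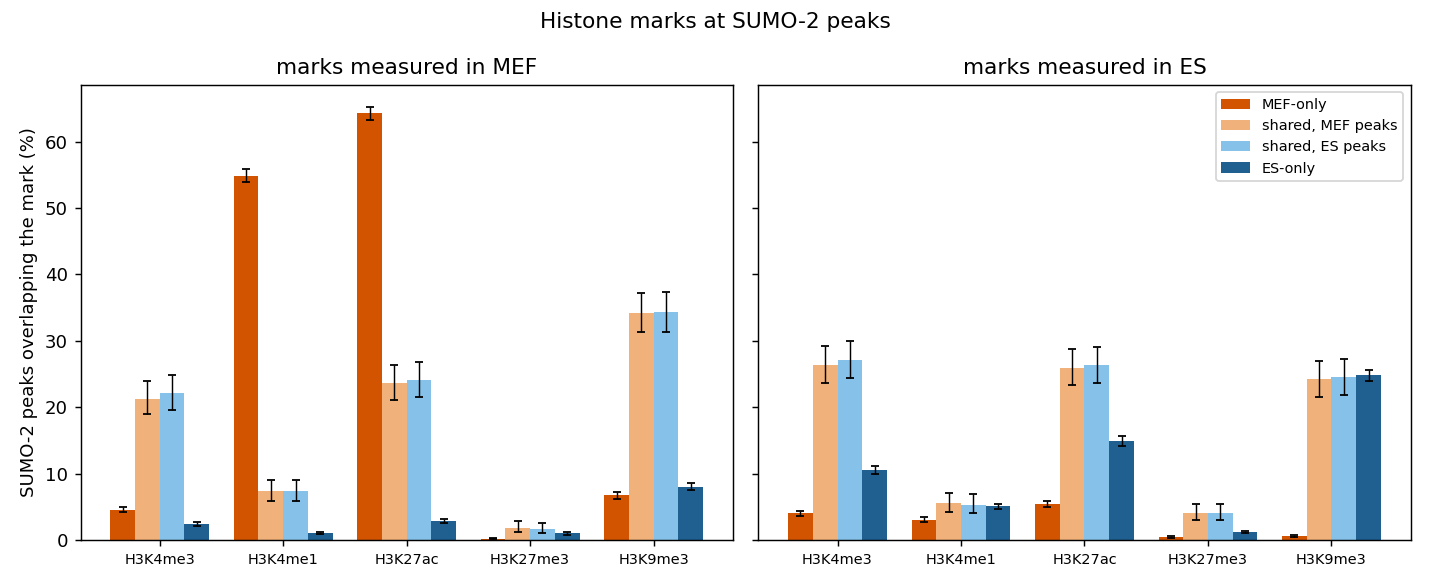
Share of SUMO-2 peaks that overlap each of 5 histone marks measured in MEF (left) and in ES cells (right), for the 4 classes of peak; bars are shares and error bars 95% Wilson intervals. In MEF, H3K27ac (64.3%) and H3K4me1 (54.9%) stand highest at MEF-only peaks, and in ES cells H3K9me3 is at 24.8% of ES-only and 24.5% of shared ES peaks.

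Each peak was also given 1 chromatin state, taking H3K4me3 first, then H3K27ac without it, then H3K4me1 without either, then H3K9me3 without these active marks, then H3K27me3 alone. Among the shared sites, seen as MEF peaks, 623 of 1001 (62.2%) had the same state in both cell types, and 271 of these had no mark in both. The H3K4me3 sites were the most constant: 203 of the 213 in MEF (95.3%) were H3K4me3 sites in ES cells too. This was not particular to shared sites, since it held for 243 of 259 ES-only (93.8%) and 278 of 408 MEF-only sites (68.1%). Taken from H3K4me3 in ES cells, MEF had it at 203 of 264 shared (76.9%), 278 of 357 MEF-only (77.9%) and 243 of 1165 ES-only sites (20.9%). Of the 296 shared sites with H3K9me3 and no active mark in MEF, 121 (40.9%) had the same state in ES cells, and 16.4% of all shared sites had H3K9me3 in both. MEF-only sites had the same state in 2459 cases (27.4%), of which 1986 had no mark in both, and ES-only sites in 6299 cases (57.2%), of which 5684 had no mark in both. Of the 5415 MEF-only sites with H3K27ac and no H3K4me3, 5107 (94.3%) had no mark in ES cells.

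The state also set apart width and rank. In MEF, the MEF-only peaks with H3K27ac and no H3K4me3 had a median width of 935 bp, against 486 bp for those with no mark. Among shared MEF peaks the H3K4me3 sites ranked at a median of 3.30% from the top of the list, the H3K9me3 sites at 43.7% and the unmarked sites at 54.5%. Among shared ES peaks, H3K9me3 sites ranked at a median of 14.5%, H3K4me3 sites at 22.4% and unmarked sites at 43.6%.

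**Figure D3:**
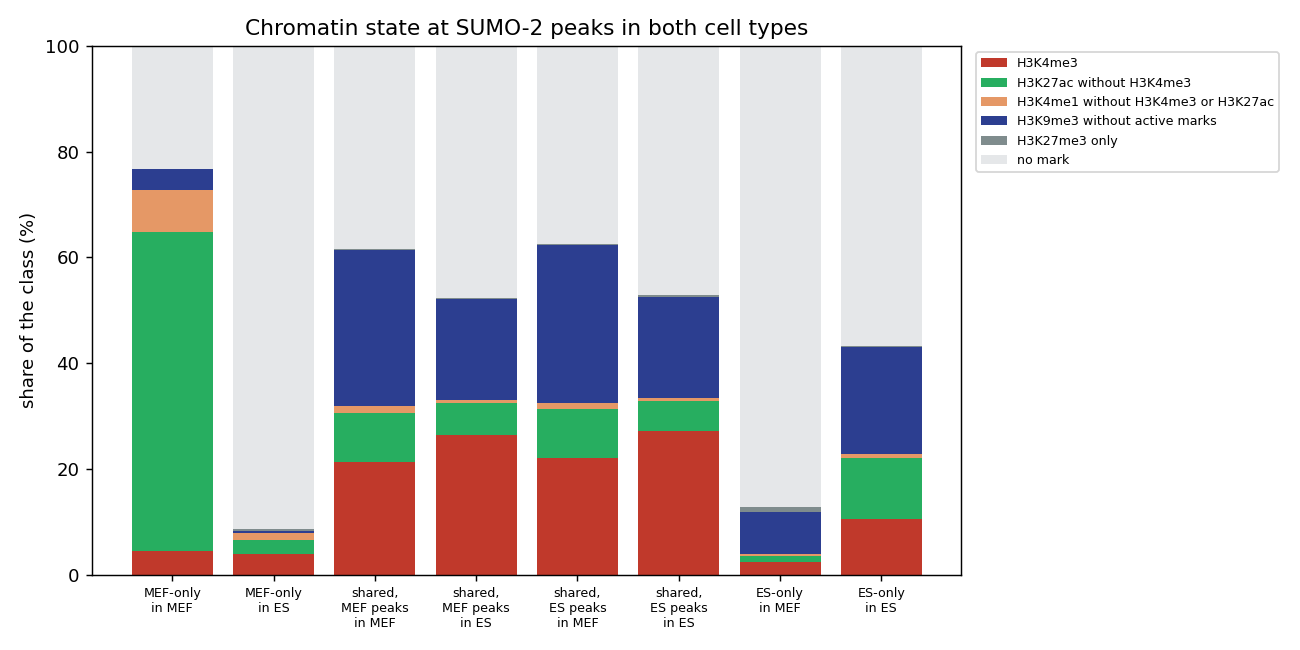
Chromatin state of the 4 classes of SUMO-2 peak in MEF and in ES cells, as stacked shares of each class (%). MEF-only peaks are unmarked in 23.3% of cases in MEF and 91.4% in ES cells, and ES-only peaks in 87.3% of cases in MEF and 56.7% in ES cells.

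Marks also varied along the score order, divided into 10 groups from the highest scores. In MEF, H3K27ac overlapped 70.4% of the highest group and 49.6% of the lowest. H3K4me1 was on 49.2% of the highest group, 57.8% of the second and of the fourth, 41.1% of the ninth and 44.3% of the lowest. H3K9me3 was on 16.2% of the highest group and 6.54% of the lowest, and H3K4me3 stood at 17.4% of the highest group and 6.38% of the second. In ES cells H3K9me3 was on 52.7% of the highest group, 21.1% of the fifth and 12.8% of the lowest, while H3K27ac stayed between 13.8% and 20.0%. The share with none of the 5 marks was 12.9% in the highest and 35.0% in the lowest MEF group, and 33.3% and 66.3% in the ES groups. Of the 100 highest-scoring peaks, 62 in MEF had H3K4me3 and 65 H3K27ac, and 66 in ES cells had H3K9me3.

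**Figure D4:**
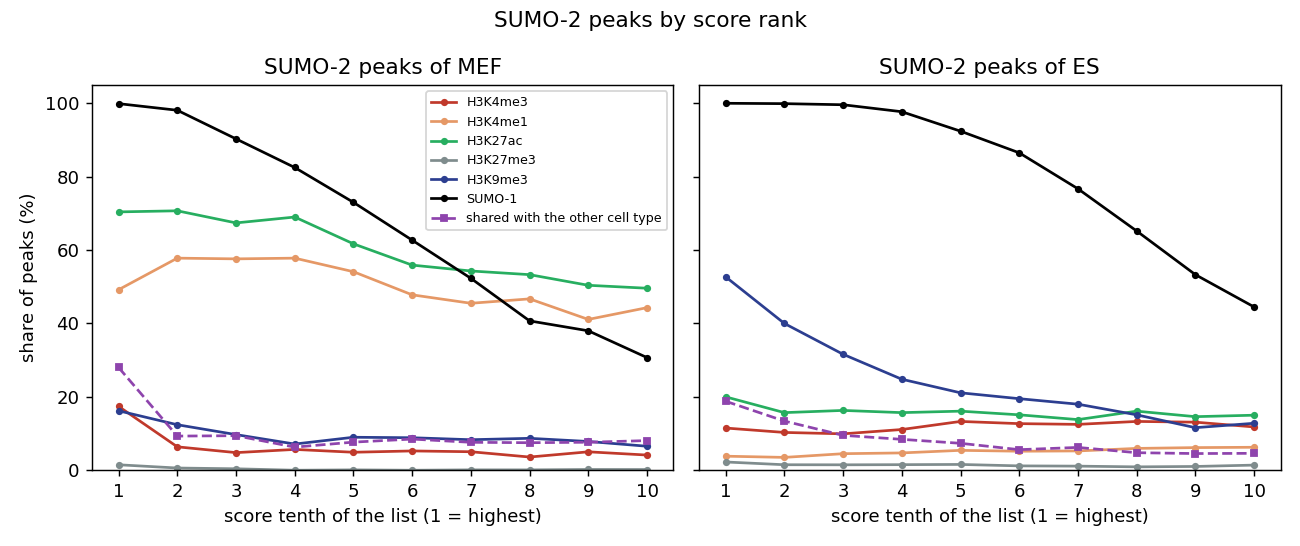
Share of SUMO-2 peaks (%) that carry each mark of the same cells, that overlap SUMO-1, or that are shared with the other cell type, by score group of the list (1 is the highest), in MEF (left) and ES cells (right). H3K27ac stays at 49.6% or more in every MEF group, and H3K9me3 is at 52.7% of the first ES group and 12.8% of the last.

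SUMO-1, the other SUMO protein measured, followed the same split; whether the antibodies cross-react was not tested. In MEF it overlapped 5831 of 8978 MEF-only peaks (64.9%), and in ES cells 119 (1.33%). In ES cells it overlapped 8907 of 11013 ES-only peaks (80.9%), and in MEF 242 (2.20%). Shared sites were SUMO-1 sites in both: as MEF peaks, 82.5% in MEF and 89.0% in ES cells, and 743 (74.2%) in both. The summits of SUMO-2 and SUMO-1 peaks were a median of 22.0 bp apart at MEF-only and 16.0 bp at ES-only sites. The share with SUMO-1 declined with the score, at 99.9% in the highest and 30.7% in the lowest MEF group, and 100% and 44.5% in the ES groups. MEF-only peaks with H3K4me3 met SUMO-1 most often (84.3%), and those with no mark less (53.5%).

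Seen from the marks, SUMO-2 was present on only part of the marked chromatin. In MEF it met 6157 of 37379 H3K27ac peaks (16.5%), 5299 of 25401 H3K4me1 peaks (20.9%), 960 of 12020 H3K9me3 peaks (7.99%), 598 of 15052 H3K4me3 peaks (3.97%) and 32 of 11276 H3K27me3 peaks (0.284%). In ES cells it met 2998 of 8508 H3K9me3 peaks (35.2%), 1937 of 25273 H3K27ac peaks (7.66%), 664 of 12021 H3K4me1 peaks (5.52%), 1390 of 26309 H3K4me3 peaks (5.28%) and 183 of 5237 H3K27me3 peaks (3.49%). Ordered by the score of the mark and divided into 10 groups, 48.9% of the highest MEF H3K4me1 group met SUMO-2 and 10.5% of the lowest. For MEF H3K27ac it was 28.9% and 9.78%, and for ES H3K9me3 52.2% and 23.3%. ES H3K4me3 peaks ran the other way, at 3.80% in the highest group and 6.23% in the lowest. The width of mark peaks with and without SUMO-2 depended on the mark. MEF H3K27ac peaks had a median of 1564 bp with it and 1094 bp without, and ES H3K9me3 peaks 1200 bp with it and 781 bp without. The order was the other way for MEF H3K27me3, at 872 bp with it and 1200 bp without, and for ES H3K4me3, at 1120 bp with it and 1346 bp without.

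**Figure D5:**
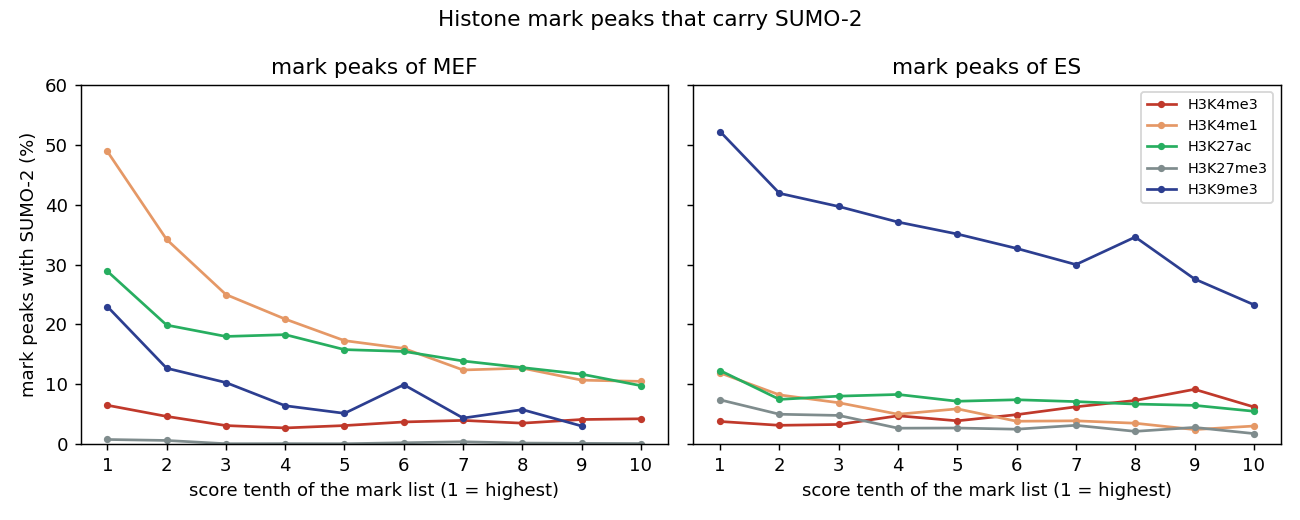
Share of histone mark peaks that overlap SUMO-2 of the same cells (%), by score group of the mark list (1 is the highest), in MEF (left) and ES cells (right). MEF H3K4me1 is at 48.9% in the highest group and 10.5% in the lowest, and ES H3K9me3 at 52.2% and 23.3%. H3K9me3 of MEF has no last group because of tied scores.

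H3K9me3 peaks found in both cell types met SUMO-2 more often than those found in 1. In MEF, 191 of 1183 common H3K9me3 peaks (16.1%) met MEF SUMO-2, against 769 of 10837 MEF-alone peaks (7.10%). In ES cells it was 578 of 1123 common peaks (51.5%), against 2420 of 7385 ES-alone peaks (32.8%). The common peaks were also wider, at medians of 619 and 450 bp in MEF and 1102 and 888 bp in ES cells.

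The peaks were not evenly spread. Chromosome 13 held 120 of the 1001 shared MEF peaks (12.0%), against 612 of the 8978 MEF-only peaks (6.82%). The window of 100 kb with the most peaks in both lists was on this chromosome: chr13:23500001-23600000 held 19 MEF and 19 ES peaks, all of them shared, and all overlapped SUMO-1 in both cell types. H3K4me3 was on 11 of the 19 MEF peaks in MEF, and on 18 of them in ES cells. The window chr13:22000001-22100000 held 14 MEF and 15 ES peaks, of which 14 in each list were shared, and chr13:21300001-21400000 held 16 ES peaks, 11 of them shared. The window with the next most MEF peaks after the first was chr3:79700001-79800000, with 15 MEF peaks and 1 ES peak, and none of the 15 was shared. H3K27ac of MEF was on 14 of the 15, and none of the 5 marks of ES cells was on any. Chromosome X held 0.661% of MEF and 1.35% of ES peaks, and chromosome Y 32 MEF peaks, of which 26 were shared. How reads that map to several places were treated is unknown, and its part in the chromosome Y and shared H3K9me3 values was not tested.

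Single regions, chosen by score or width, showed the classes in detail, with the fold enrichment being the authors' value for the peak. The highest-scoring MEF-only peak, chr4:107667105-107668269, was 1165 bp wide and 17.2-fold enriched, ranked 17 of 9979, and carried H3K27ac, H3K9me3 and SUMO-1 in MEF and none of these in ES cells. The next was chr3:148302916-148304140, 33.6-fold enriched, with H3K4me1, H3K27ac and SUMO-1. The highest-scoring ES-only peak, chr14:68738892-68740151, was the first of the ES list at 48.2-fold, with H3K9me3 and SUMO-1 in ES cells and neither in MEF. Of the next ES-only peaks, chr13:84376271-84377503 (rank 10) carried H3K9me3 and SUMO-1 in both cell types, and chr4:154346431-154347214 (rank 12) H3K9me3 and SUMO-1 in ES cells. Among the 5 highest of each kind, 4 MEF-only peaks had H3K27ac in MEF and 4 ES-only peaks had H3K9me3 in ES cells.

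The best-ranked shared pair of the chromosomes searched lay on chromosome 13, with ranks of 2 in MEF and 5 in ES cells. It was chr13:64270664-64271548 in MEF and chr13:64270319-64271987 in ES cells, with H3K9me3 and SUMO-1 in both, at 23.3-fold enrichment in MEF and 20.1-fold in ES cells. A pair of promoter type at chr2:119372612-119373044 in MEF ranked 75 of 9979 there, and its ES peak ranked 9 of 12014. It carried H3K4me3, H3K27ac and SUMO-1 in both cell types. The widest peaks were chr2:125117855-125122056 (4202 bp) among MEF-only and chr6:64967437-64972350 (4914 bp) among ES-only peaks, both with H3K4me1 and H3K27ac of their own cells and the ES-only peak also with H3K9me3.

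How often MEF H3K27ac peaks were found again in reprogramming cells was compared between peaks with and without SUMO-2. The order of the shares turned when peaks with H3K4me3 were left out, and turned back in the highest-ranked quintile of the rest. The cells were MEF at day 4 (D4) of expressing the factors Oct4, Sox2, Klf4 and Myc, with a hairpin against Ubc9 (shUbc9) or a control hairpin (shCtrl). MEF H3K27ac peaks with a MEF-only SUMO-2 peak were found at D4 in 32.3% of 5903 cases with shUbc9 and 35.0% with shCtrl. Those with no MEF SUMO-2 peak were found in 55.4% of 31222 cases with shUbc9 and 58.0% with shCtrl. The makeup of these groups was unlike, since H3K4me3 of MEF was on 6.74% of the H3K27ac peaks with SUMO-2 and on 46.8% of those without. With H3K4me3 peaks kept in, peaks with SUMO-2 had the lower share in every quintile of rank, for both hairpins. With shUbc9 it was 59.4% against 88.7% in the highest quintile, and 9.99% against 26.2% in the lowest.

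Among H3K27ac peaks without H3K4me3, a setting chosen after seeing the data, the overall shares lay closer together and their order turned. Of the 5505 with SUMO-2, 28.5% were found with shUbc9 and 31.2% with shCtrl, and of the 16618 without SUMO-2, 25.7% were found with shUbc9 and 29.5% with shCtrl. These groups were unlike in rank, since the peaks with SUMO-2 stood at a median of 40.3% from the top of the H3K27ac list and those without at 67.0%. In the highest-ranked quintile, still without H3K4me3, peaks with SUMO-2 had the lower shares, at 54.3% with shUbc9 and 57.1% with shCtrl. Peaks without SUMO-2 had 56.6% with shUbc9 and 62.9% with shCtrl. The other quintiles without H3K4me3 are not given here. H3K27ac in ES cells was found at 3.72% of the peaks with a MEF-only SUMO-2 peak, again leaving out H3K4me3. It was found at 8.82% of those with no MEF SUMO-2 peak. The SUMO-2 peaks of the first group were chosen to have no ES SUMO-2, and the second group was not so chosen. H3K27ac of ES cells overlapped 5.41% of MEF-only and 25.9% of shared MEF SUMO-2 peaks. The part of this choice in the ES shares was not tested.

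In ES cells given an interfering RNA against Ubc9 (siUbc9) or a control (siCtrl), H3K9me3 was measured again. H3K9me3 overlapped 13.3% of the ES SUMO-2 peaks with siUbc9 and 26.3% with siCtrl, while the lists covered 21.1 Mb with siUbc9 and 31.0 Mb with siCtrl. Of the siCtrl H3K9me3 peaks, 47.2% of the 3185 with SUMO-2 and 57.4% of the 18307 without were found with siUbc9. Within the highest-ranked quintile it was 89.7% with SUMO-2 and 97.1% without, and within the lowest 10.6% with SUMO-2 and 22.9% without; the direction was the same in the other 3. Recovery was also partial without depletion. Of the H3K9me3 peaks of the wild-type ES cells, 54.1% of the 2998 with SUMO-2 and 48.8% of the 5510 without were found with siCtrl. With siUbc9, 28.7% of these 2998 peaks with SUMO-2 and 36.1% of these 5510 without were found. The order of the groups was thus opposite with siCtrl and siUbc9. How many of the peaks not found with siUbc9 had been lost was not tested. The part of list length in these shares was not tested.

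RNA of Sumo2 and of Sumo3, which encodes its close relative SUMO-3, was measured in MEF with a control hairpin (shCtrl) and in ES cells with a control interfering RNA (siCtrl), 3 libraries each, so cell type and delivery cannot be told apart and the libraries are not from the cells of the ChIP. The libraries held 39.9 to 54 M gene counts. Sumo2 had 43.2, 46.3 and 41.8 CPM (counts scaled to the effective library size) in MEF, against 69, 56.2 and 63.6 CPM in ES cells (log2 fold change -0.52, SE 0.08, edgeR quasi-likelihood test, adjusted p = 7.28e-05). Its reads may be shared with near-identical copies, so its level is uncertain.

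Sumo3 had 148, 154 and 143 CPM in MEF, against 244, 205 and 226 CPM in ES cells (log2 fold change -0.60, SE 0.07, edgeR adjusted p = 5.64e-06). The libraries of the groups did not overlap for either gene, and both were lower in MEF. The edgeR test called 90.5% of 18149 genes at an adjusted p under 0.05, 42.8% higher and 47.7% lower in MEF, so a call alone does not set these genes apart. Over every gene tested the median fold change came to -0.13 on the log2 scale, and to -0.27 with library sizes alone.

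In these RNA libraries the markers followed the cell type labels. The 8 ES markers summed to 1.2 to 1.42 CPM in MEF and 2880 to 3060 CPM in ES cells, and the 8 fibroblast markers to 20200 to 25100 CPM in MEF and 276 to 300 CPM in ES cells. Lin28a and Sall4 had no count in MEF. The 4 macrophage genes summed to 35.1 to 47.7 CPM in MEF and 40.5 to 45.3 CPM in ES cells, most of it Cd68 in ES cells (42.1 CPM), while the defining gene Adgre1 was at 14.8 CPM in MEF and 0 in ES cells. The 4 endothelial genes summed to 5.79 to 6.28 CPM in MEF and 1.51 to 2.14 CPM in ES cells. Most of the MEF sum was Kdr (5.55 CPM), and Emcn was also higher in MEF. Cdh5 (0.087 CPM in MEF, 0.229 in ES cells) and Tie1 (0.0152 and 0.46) were higher in ES cells. The 4 keratinocyte genes summed to 3.72 to 5.41 CPM in MEF and 0.938 to 1.17 CPM in ES cells. Most of the MEF sum was Krt14 (3.51 CPM), with Trp63 also higher in MEF and Krt5 and Dsg3 higher in ES cells. Whether other cells were present, and their part in the results, was not tested.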

How the data were processed

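Members, classes, marker lists and named regions were chosen with earlier results of these data known. SUMO-1 and SUMO-2, 5 histone marks and reprogramming factors were measured by ChIP-seq. The authors deposited 32 peak lists on mm9, each merging 2 replicates, with a score, a fold enrichment ratio and −log10 p and q values per peak. The score, tested on the values, is 10 times the −log10 p rounded down, and was used only for ranks within its list. The submitters' processing notes name Bowtie, Bowtie2, bedtools 2.19.1, MACS2, STAR 2.5.0a, featureCounts and DESeq2 (Bowtie2 for H3K9me3 of siCtrl and siUbc9 ES cells). On the peak threshold, strand setting and multiply mapped reads, the sources used here say nothing. Repeated lines were removed (5683 in H3K27me3 of MEF and 1752 in H3K27me3 of ES cells). Other columns of the lists, such as names, were not used. Overlap needed 1 bp, and intervals are Wilson 95%. Named regions were sought on chromosomes 1 to 17, 19 and X. They were taken from the 5 highest-scoring peaks of each cell-specific class and the 5 shared pairs with the best mean rank in both lists. The 2 widest peaks of each class and the 3 densest windows of 100 kb in each list were also used. Named genes were Sumo2, Sumo3 and marker lists for ES cells, fibroblasts, macrophages, endothelium and keratinocytes; some genes that the rule selected are left out of the text.

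RNA was deposited by the authors as read counts per gene, per the file headers, with 0 columns left unmatched. Symbols came from a GRCm38 table, used for names alone (24191 of 26301 genes matched). Counts were filtered with filterByExpr (minimum count 10), scaled by TMM and tested with edgeR 4.0.16 in R 4.3.3, two-sided, with Benjamini-Hochberg adjustment over 18149 genes at 0.05; DESeq2 1.42.0 was an alternative. Peak computations used Python 3.11.15. The labels do not say whether replicates were separate cultures, so p-values measure the spread between these libraries. Overlap counting and the edgeR fit were tested on simulated data.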

Additional observations from a re-analysis of the deposited data

How the results depend on the processing

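Of 86 alternative values for the peak results 39 stayed within the counting interval, 45 moved and 2 reversed, and H3K27ac stayed above H3K4me1 at MEF-only peaks and H3K9me3 above H3K27ac at ES-only peaks in all alternatives run for them. The reversed value was the share of MEF H3K27ac peaks found at D4, with minus without SUMO-2, which was -23.1 percentage points with shUbc9 and -23.0 with shCtrl, and 2.73 and 1.72 among peaks without H3K4me3. The share of peaks shared was 9.05% of MEF and 7.49% of ES peaks with the upper 50% of each list, where both lists were cut. Against the other list in full, 603 of these 4926 MEF peaks and 691 of these 6008 ES peaks were shared. The share was 10.9% of MEF and 9.12% of ES peaks with peaks up to 1000 bp apart. For ES it was 7.47% with 50% of the peak covered and 7.75% without chromosome 13 (chosen after seeing the data). MEF-only peaks with H3K27ac were 60.6% with the peak centre in the mark, 61.7% with 50% covered, 41.2% with the upper 50% of the mark list and 73.1% with the upper 50% of the SUMO-2 list. The same settings gave 50.4%, 51.3%, 39.5% and 61.8% for H3K4me1 and 73.3%, 74.0%, 57.6% and 83.6% for any mark. ES-only peaks had H3K9me3 in 22.2%, 22.3%, 15.5% and 34.5%, any mark in 40.0%, 40.3%, 25.3% and 49.8%, and H3K27ac in 13.4%, 13.6% and 8.67% under the first 3. Shared MEF peaks had H3K9me3 in 31.2%, 30.9% and 27.8% under the first 3, and H3K4me3 in 18.1%, 18.1%, 11.4% and 29.2%, and 17.9% without chromosome 13. Shared ES peaks had H3K9me3 in 21.8% with the centre, 14.5% with the upper 50% of the mark list and 30.5% with that of SUMO-2, and H3K4me3 in 21.8% and 30.0% under the last 2 and 21.9% without chromosome 13. The median width was 587 bp for shared ES peaks at 50% covered and 787 bp for MEF-only peaks after joining. At shared ES peaks H3K9me3 passed H3K4me3 with the upper 50% of the SUMO-2 list and, at 26.0%, without chromosome 13. The cause was not tested, beyond fewer peaks in the shortened lists.

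For RNA, 16418 genes were called, and 16185 to 16617 leaving out 1 library. The fold changes of Sumo2 and Sumo3 kept their direction and their side of the threshold in all alternatives run. The replicate block called 16086 genes and changed neither of these calls. Replicate numbers did not pair the samples, as the deviations of same-numbered libraries had correlations of -0.16, -0.21 and 0.01. DESeq2 called 16046 genes. Depth limits could not be given for the peak lists, which hold no counts.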

Other observations

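The reprogramming factors Oct4, Sox2 and Klf4, measured at D4, lay on part of the MEF-only and shared SUMO-2 sites and on few of the ES-only ones. At least 1 of the 3 factors overlapped 30.6% of the MEF-only peaks with shUbc9 and 32.5% with shCtrl, and all 3 overlapped 13.6% with shUbc9 and 12.5% with shCtrl. At ES-only peaks it was 7.84% with shUbc9 and 5.88% with shCtrl for at least 1 factor, and 3.06% and 1.76% for all 3. Shared sites, as ES peaks, met at least 1 factor in 29.6% of cases with shUbc9 and 27.4% with shCtrl. The lists of the factors were longer with shUbc9 (23477 and 16740 peaks of Oct4, 27514 and 20197 of Sox2, 37505 and 34163 of Klf4, with shUbc9 and shCtrl), and the part of list length was not tested.

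The median gap between neighbouring peaks on a chromosome was 67.0 kb for MEF-only peaks, 108 kb for ES-only peaks and 1124 kb for shared peaks, in lists of 8978, 11013 and 1001 peaks.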
